A study of Mus musculus with 6 samples.

Results

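The alpha and beta crystallins are 8 mouse genes, Cryaa, Cryab, Cryba1, Cryba2, Cryba4, Crybb1, Crybb2 and Crybb3, chosen by symbol out of the 56940 genes in the deposited count files. All 8 were found by Ensembl identifier, and all 8 were among the 15407 genes with enough counts to be tested. Their RNA was measured in lens capsules of mice after removal of the fiber cell mass through an incision in the front of the lens, which models cataract surgery. The capsule, a thick basement membrane, keeps the lens epithelial cells attached to it. The 0 h group, collected right after surgery, and the 72 h group had 3 libraries each, and every library pooled 5 capsules. The labels give every library the strain C57BL/6, the wildtype genotype and the same surgery, and no age. Every sample description also carries the tag RUNX_Cre_N, whose meaning the sources used here do not give. One eye of a mouse was operated on 72 h before the other and both capsules were collected together, but the labels do not say which pools share animals, so the tests take their error from the differences among these pools, part of which may be technical.

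Crystallins are the soluble proteins that give the lens its refractive power. The alpha crystallins Cryaa and Cryab belong to the small heat shock proteins and act as chaperones that keep other lens proteins from aggregating. The beta crystallins are structural proteins that share an ancestral fold with the gamma crystallins, and they are divided into acidic chains (Cryba1, Cryba2, Cryba4) and basic chains (Crybb1, Crybb2, Crybb3). In the mature lens, alpha crystallins are made in both epithelial and fiber cells, while most beta and gamma crystallin genes are switched on as epithelial cells turn into fibers. Their promoters are bound by lens transcription factors such as Pax6, large Maf proteins, Sox proteins and Prox1.

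The promoters are shown as a description, because large Maf factors, which bind sites built around TGCTGA, are textbook activators of these genes. Whether such sites had a part in the changes given below was not tested. RefSeq windows on GRCm38.p6, from 250 bases before to 50 bases after a gene's start, were given for 7 of the 8 genes. TGCTGA, read on both strands, occurred in 6 of these 7 windows, against 19.5% of all 32851 windows of that length. TATAAA, read on the gene's strand only, occurred in 3 of 7 (Cryba1, Cryba2 and Crybb1), against 8.32% of all windows. AACAAT, the core of a site for Sox proteins, was found on either strand in 1 of 7 (Crybb1), against 10.7%, and GAANNTTC, the inner part of a heat shock element, in 0 of 7, against 7.86%. These searched motifs do not contain one another, and a match describes letters, not binding. The sequences below run 5′ to 3′ on the gene's strand and end before the first annotated exon, and capitals mark TATAAA on the printed strand and TGCTGA on either strand (TCAGCA where it lies on the other). They are chr11:77725294-77725493 for Cryba1, chr1:74893144-74893343 for Cryba2, chr5:112252519-112252718 for Cryba4 and chr5:113081585-113081784 for Crybb3, all on the minus strand, and chr5:112255570-112255814 for Crybb1 on the plus strand.
Cryba1: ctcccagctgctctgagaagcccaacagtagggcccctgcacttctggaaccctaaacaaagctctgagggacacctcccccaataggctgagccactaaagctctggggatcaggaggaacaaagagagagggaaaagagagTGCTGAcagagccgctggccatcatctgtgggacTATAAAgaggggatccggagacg
Cryba2: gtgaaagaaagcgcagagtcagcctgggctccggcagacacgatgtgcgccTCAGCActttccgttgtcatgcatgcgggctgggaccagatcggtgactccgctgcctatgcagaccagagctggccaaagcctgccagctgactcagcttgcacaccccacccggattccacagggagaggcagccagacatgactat
Cryba4: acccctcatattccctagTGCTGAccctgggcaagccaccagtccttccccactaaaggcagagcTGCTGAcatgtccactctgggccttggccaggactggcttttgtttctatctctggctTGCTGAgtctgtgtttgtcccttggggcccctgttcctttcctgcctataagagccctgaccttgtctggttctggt
Crybb1: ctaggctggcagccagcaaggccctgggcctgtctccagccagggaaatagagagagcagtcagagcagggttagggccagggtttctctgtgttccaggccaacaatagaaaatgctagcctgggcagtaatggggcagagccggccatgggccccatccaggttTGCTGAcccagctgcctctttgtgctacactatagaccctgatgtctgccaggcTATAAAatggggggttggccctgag
Crybb3: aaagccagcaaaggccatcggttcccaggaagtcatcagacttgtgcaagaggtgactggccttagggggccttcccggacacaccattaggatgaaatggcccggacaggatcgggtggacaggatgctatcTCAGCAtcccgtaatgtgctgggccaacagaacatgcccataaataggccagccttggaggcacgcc

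Cryba4 held TGCTGA 3 times, starting at positions -182, -135 and -77 relative to the start of the gene, more often than any other member. Cryba1, Cryba2, Crybb1 and Crybb3 each held it once, at -57, -149, -84 and -67. The match of Cryaa, at -108, lies in an exon of another annotated transcript and is not printed. The window of Crybb2 held none of the 4 motifs. TATAAA stood at -23 in Cryba1 and at -30 in Crybb1, and in Cryba2 it began at -3, so that it spans the listed start and is cut by the end of the printed stretch.

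Depth and library makeup bear on all values below. Counts in genes ranged from 8453450 to 12432688 per library, and 72 h replicate 3 stood apart from the other 72 h libraries: chi-square of the gene counts over its degrees of freedom was 42.2 and 50.2 against these, and 13.7 between them. The labels name lens epithelial cells, and Pax6, a transcription factor that marks them, had a level of 684 ± 23.0 CPM in the 0 h and 643 ± 91.5 CPM in the 72 h libraries (CPM, counts per 1000000 after TMM scaling of the library sizes; SD, n = 3 each). Over the whole list of 17 lens epithelial genes, the summed level was 4017 to 4139 per 1000000 gene counts at 0 h and 2241 to 2490 at 72 h, with 11 genes lower and 1 higher. Beside this count and those of the marker lists that follow, 17.5% of all tested genes were called lower and 21% higher. Lens fiber genes other than crystallins summed to 10452 to 11699 per 1000000 gene counts at 0 h and to 1642 to 2749 at 72 h. Photoreceptor markers summed to 862 to 2149 at 0 h and 77.7 to 208 at 72 h, with 15 of 18 tested markers lower. Markers of Muller glia, retinal pigment epithelium and iris summed to 1600.4 to 2020 and 291 to 893, with 6 of 12 lower (3 without 0 h replicate 1, 2 or 3 in turn). Apoe, a lipid carrier of glia, was not called (log2 change -1.65 ± 0.50, adjusted p = 0.056), but it was called lower under 5 alternatives: upper quartile normalisation (adjusted p = 0.049), a stricter filter on low counts (mean of at least 50; adjusted p = 0.047), DESeq2 (adjusted p = 0.0022), and without 72 h replicate 2 (adjusted p = 0.031) or 3 (adjusted p = 0.0031). Macrophage and monocyte markers summed to 35.3 to 51.3 and 229 to 465, with 13 of 16 higher, such as Lyz2, the lysozyme of myeloid cells (8.37 ± 4.35 and 113 ± 54.1 CPM). Neutrophil markers summed to 0.933 to 1.61 and 20.8 to 45.4, with both tested markers of 10 listed higher (4 without 0 h replicate 1, where more were tested), Csf3r, the receptor for granulocyte colony-stimulating factor, among them (log2 change 4.41 ± 0.34), and Ly6g, Mpo, Elane, Camp and Ngp at 0 counts in every library. The other tested marker, Cxcr2, had 0 counts over the 0 h libraries and 64 over the 72 h libraries. Such a gene can enter the test only through its higher group, so this count is a description. Itgam of the macrophage list, at 8 and 1145 counts, entered in the same way. Corneal and surface epithelium markers summed to 807 to 1206 at 0 h and to 164, 435 and 4983 at 72 h, the last in replicate 3. Aldh3a1, a corneal aldehyde dehydrogenase, was lower (999 ± 192 and 248 ± 85.3 CPM), and the other 7 of 8 were not called. Most of the 0 h sums came from Aldh3a1, with 36053 counts over the 0 h libraries against 664 for Krt15, the next highest of the list there. Aldh3a1 went against most of its list, whose median log2 change was 5.06. The estimates ran from -2.01 for Aldh3a1 and -0.98 for Krt10 up to 6.85 for the keratin gene Krt6a. Krt6a was at 1.26 ± 1.04 and 146 ± 245 CPM, with an SD above the mean at 72 h. Transcripts of the mitochondrial genome took up 3.85% ± 0.0862 of the 0 h gene counts and 20.01% ± 4.67 of those at 72 h. The part of these shifts in the crystallin results was not tested, beyond the values given without single libraries or without mitochondrial genes.

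All 8 genes fell by 72 h and none rose, while 17.5% of all tested genes were called lower, 21% higher and 38.5% in either direction. The test was the quasi-likelihood test of edgeR, with p-values adjusted over the 15407 genes by the Benjamini-Hochberg method and called under 0.05. Each fell by at least 2-fold, as 10.4% of tested genes did. In each of the 8, every 72 h library lay below every 0 h library, as in 26.9% of tested genes. The median log2 change of the 8 genes was -3.43, beside -0.02 over all tested genes. The median ranged from -3.82 without 72 h replicate 2 to -3.23 without 72 h replicate 1. In bulk RNA, fewer cells of a type and less of a transcript per cell cannot be told apart.

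Cryaa, the chaperone found almost only in the lens, was at 56399.5, 59316 and 57768 CPM in the 0 h replicates 1 to 3. At 72 h it was at 7598, 13402 and 6893 CPM. The 0 h libraries lay close together, and the 72 h libraries were all lower, with replicate 2 the highest of them. The log2 change (72 h over 0 h) was -2.64 ± 0.25 (SE; adjusted p = 9.8e-05), 6.22-fold lower with a 95% interval of 4.18 to 9.27. Part of the Cryaa exons, 13.2% of their length, overlaps AC090881.2, an antisense gene that also fell (log2 change -2.52 ± 0.16, adjusted p = 3.2e-06). How reads of such overlaps were assigned is not known, since the strand setting of the counting is not given.

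Cryab, the small heat shock protein that many tissues besides the lens make, was at 19725 to 21895 CPM at 0 h. At 72 h it was at 2205, 4047 and 1962 CPM, again highest in replicate 2. Its log2 change was -2.91 ± 0.28 (adjusted p = 2.3e-04), or 7.52-fold lower (95% interval 4.73 to 11.96). The exons of Cryab overlap those of Hspb2, another small heat shock protein gene on the opposite strand, over 17.0% of the Cryab length. Hspb2 fell by less, from 33.3 ± 9.45 to 16.1 ± 2.77 CPM (SD, n = 3 each; log2 change -1.04 ± 0.24, adjusted p = 0.0067).

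The counts of Cryaa and Cryab did not fall in the same proportion. There were 2.86, 2.71 and 2.87 Cryaa counts per Cryab count in the 0 h libraries and 3.45, 3.31 and 3.51 at 72 h. The ranges of the 2 groups do not overlap, and the exact two-sided permutation p of 0.1 is the smallest that 3 libraries against 3 allow (adjusted p = 0.108 over 28 pairs of members). This ratio does not depend on any scaling between libraries.

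Among the acidic beta chains, Cryba4 showed the lowest level at 72 h. It was at 2747, 3176 and 2578 CPM at 0 h and at 19.7, 78.6 and 33.4 CPM at 72 h. All 72 h libraries were far below the 0 h libraries, and they also differed among themselves, by 3.99-fold from replicate 1 to replicate 2. The log2 change was -6.01 ± 0.66 (adjusted p = 0.0021), 64.6-fold lower with a wide 95% interval of 19.7 to 212, and -6.74 without 72 h replicate 2. By fitted log2 change it ranked 63 of all 15407 tested genes, counted from the largest fall.

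Cryba1, whose single mRNA gives both the beta A3 and beta A1 chains, was at 8983, 10334 and 8377 CPM at 0 h. At 72 h it was at 260.4, 1211 and 488 CPM, the widest spread of any member in that group (4.65-fold from lowest to highest). The groups did not overlap, and the log2 change was -3.82 ± 0.67 (adjusted p = 0.012). This call was lost without 72 h replicate 3 (log2 change -3.64, adjusted p = 0.059; 1.6e-08 to 0.059 over all alternatives), and the change was -4.63 without 72 h replicate 2. Cryba2, the third acidic chain, was at 6448, 6793 and 6329 CPM at 0 h and at 328, 851 and 466 CPM at 72 h. All 3 libraries at 72 h were lower, for a log2 change of -3.57 ± 0.38 (adjusted p = 9.4e-04).

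Among the basic beta chains, Crybb2, a main beta crystallin of the adult lens, was at 51166, 53545 and 50356 CPM at 0 h. It was at 4141, 7244 and 4444 CPM at 72 h, below every 0 h library. The log2 change was -3.29 ± 0.21 (adjusted p = 5.1e-06), 9.80-fold lower with a 95% interval of 7.01 to 13.7. Crybb1, a chain made mostly in fiber cells, went from 1815, 2213 and 1664 CPM to 50.1, 172 and 81.6 CPM. Its groups were also apart, and its log2 change was -4.23 ± 0.55 (adjusted p = 0.0035; -4.85 without 72 h replicate 2).

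Crybb3, the remaining basic chain, had the smallest estimated fall of the 8. It was at 2707, 3424 and 2555 CPM at 0 h and at 615, 968 and 742 CPM at 72 h. Replicate 2 was the highest in both groups, and no 72 h library reached a 0 h library. The log2 change was -1.90 ± 0.18 (adjusted p = 4.6e-05), 3.74-fold lower with a 95% interval of 2.82 to 4.95. The 95% intervals of Crybb3 and Cryaa overlap, and those of Crybb3 and Cryba4 do not.

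**Figure D1:**
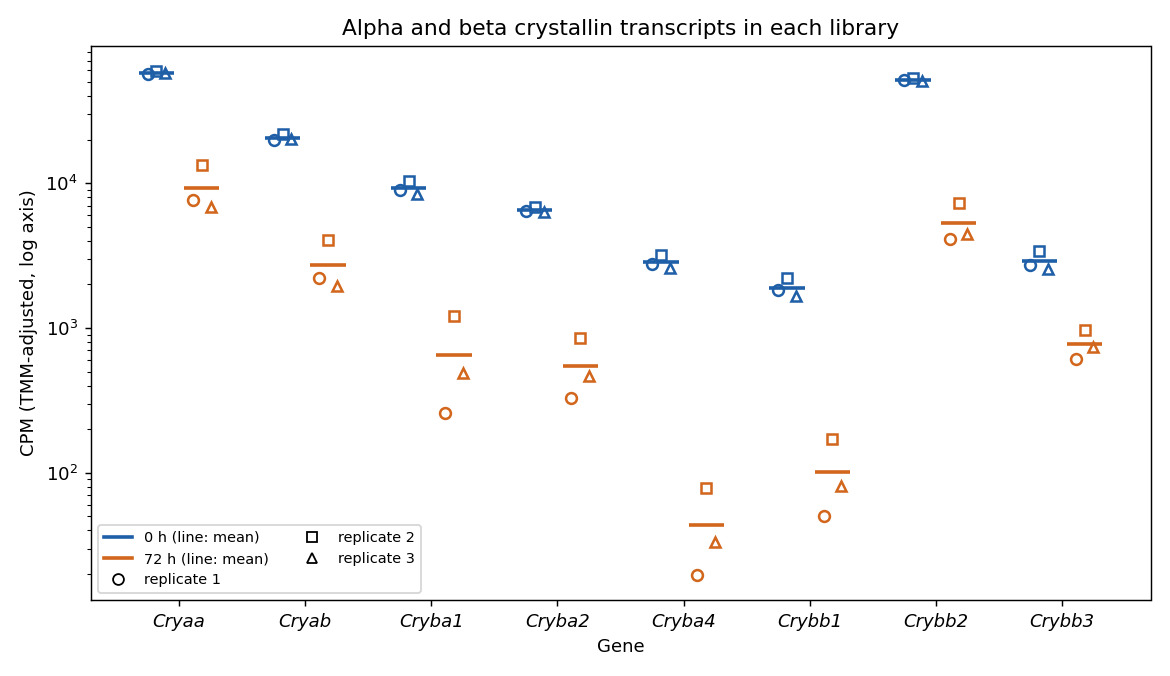
CPM (TMM-adjusted, log axis) of each of the 8 genes, with 1 symbol per library, shape for the replicate, colour for the time and a line at the group mean. For every gene the 3 libraries at 72 h sit below the 3 at 0 h, from 19.7 CPM upward for Cryba4, and replicate 2 is the highest at both times.

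**Figure D2:**
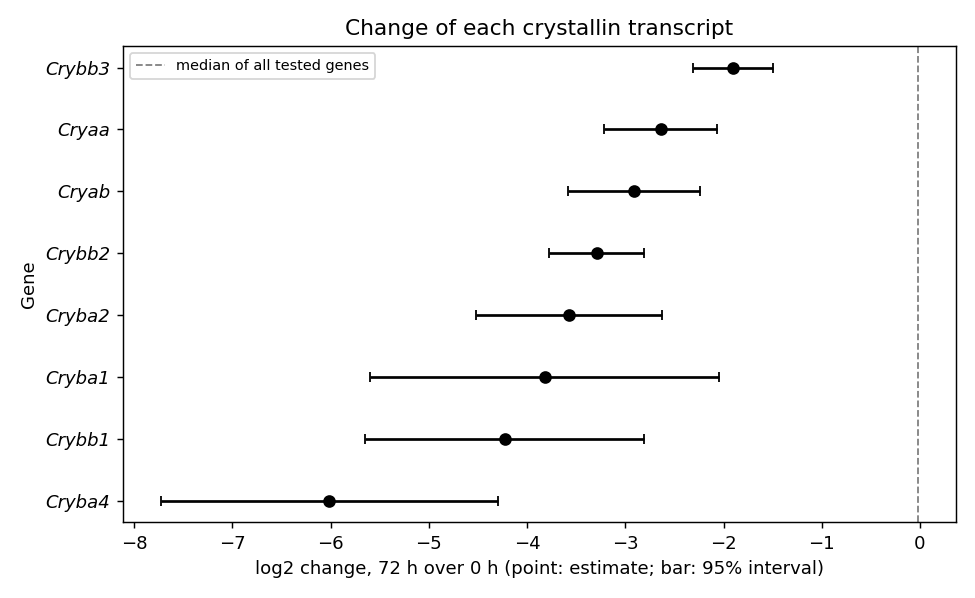
Fitted log2 change (72 h over 0 h) of each gene, with its 95% interval as a bar and the median of all tested genes (-0.02) as a dashed line. The estimates run from -1.90 for Crybb3 to -6.01 for Cryba4, and no interval reaches the dashed line.

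In both groups the libraries took a similar order across the members. Replicate 2 was the highest for 8 of 8 members at 0 h and for 8 of 8 at 72 h, whereas it was the highest for 33.4% and 33.9% of all tested genes. The lowest 72 h library was replicate 1 for 6 members and replicate 3 for the 2 alpha crystallins. The members share these libraries and are not separate observations of this order. At 72 h, replicate 2 was also the highest of the 3 libraries in the summed lens fiber genes other than crystallins (2749 per 1000000 gene counts, against 1642 and 1840). The same held for the lens epithelial genes (2490, against 2380 and 2241), the other crystallins, the crystallin transcription factors, and the Muller glia and macrophage markers. It did not hold for the other small heat shock proteins or the photoreceptor, neutrophil and corneal markers. The part of these lists in this order was not tested.

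Within a library, the members took unequal shares of their joint counts, and these shares shifted. Cryaa made up 37.6%, 36.9% and 38.6% of the counts of the 8 genes at 0 h and 49.9%, 47.9% and 45.6% at 72 h. Its share was higher in every 72 h library than in any 0 h library. Crybb2 took 33.7% ± 0.400 at 0 h (SD, n = 3) and 27.5% ± 1.78 at 72 h, lower without overlap.

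The share of Crybb3 was 1.80%, 2.13% and 1.71% at 0 h and 4.04%, 3.46% and 4.91% at 72 h, so it too was higher in each 72 h library. Cryba4 went the other way, from 1.84% ± 0.128 to 0.210% ± 0.0763. Cryba1 held 6.00% ± 0.419 and 3.09% ± 1.32, Cryba2 held 4.25% ± 0.0418 and 2.76% ± 0.525, and Crybb1 held 1.23% ± 0.135 and 0.495% ± 0.148, each lower in every 72 h library. Cryab held 13.4% ± 0.239 and 13.98% ± 0.864, and its groups overlapped. The exact two-sided permutation p was 0.4 for Cryab and 0.1, the smallest possible, for each of the other 7 genes (Benjamini-Hochberg adjusted 0.4 and 0.114 over the 8).

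Alpha crystallins together made up 51.1% ± 0.800 of the members' counts at 0 h and 61.8% ± 2.95 at 72 h. Acidic beta crystallins went from 12.1% ± 0.547 to 6.06% ± 1.88, and basic beta crystallins from 36.8% ± 0.344 to 32.1% ± 2.49. Per kilobase of exon, the alpha share was 49.0% ± 0.868 and 61.4% ± 3.19 (exact permutation p = 0.1 in each of these 4 comparisons).

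**Figure D3:**
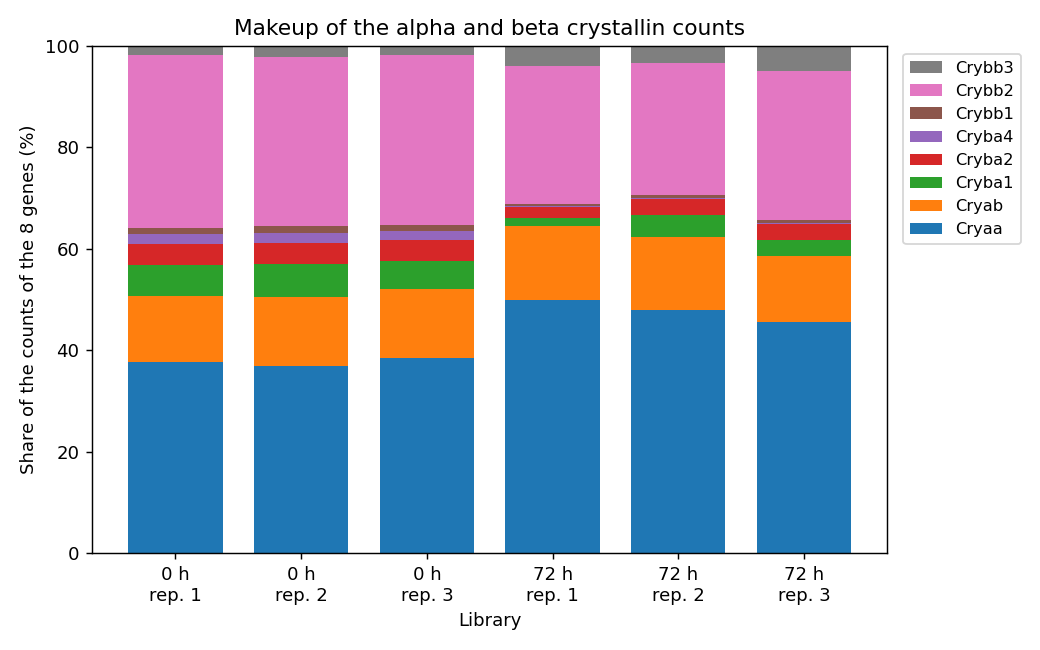
Share of each gene in the summed counts of the 8 genes (percent, stacked bars), 1 bar per library. The band of Cryaa is taller in the 72 h bars (45.6% to 49.9%) than in the 0 h bars (36.9% to 38.6%), and the band of Cryba4 shrinks from 1.84% to 0.210% on average.

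Pairs of members were compared by the log2 ratio of their counts within each library. Cryba4 and Crybb1, which adjoin each other on chromosome 5, were the neighbours farthest apart in the order of the fitted falls. The log2 ratio of Cryba4 to Crybb1 was 0.58 ± 0.06 at 0 h and -1.26 ± 0.11 at 72 h (SD, n = 3 each), a difference of -1.84 with no overlap (exact permutation p = 0.1, adjusted 0.108 over 28 pairs). The log2 ratio of Cryba1 to Cryba2 was 0.50 ± 0.10 and 0.08 ± 0.42, and here the groups overlapped (exact permutation p = 0.3). Since 3 libraries against 3 allow no p below 0.1, this test cannot decide whether these 2 genes differ in their fall. The log2 ratio of Cryaa to Crybb3 went from 4.33 ± 0.20 to 3.54 ± 0.30, and that of Crybb2 to Cryaa from -0.16 ± 0.03 to -0.80 ± 0.14, both without overlap (exact permutation p = 0.1 each).

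Levels of different genes were compared per kilobase of exon. At 0 h, Cryaa was the highest of all tested genes with 27855 ± 703 CPM per kb, followed by Crybb2 with 25690.4 ± 824 (SD, n = 3 each). Cryab, at 13918 ± 780 CPM per kb, was the fourth of all tested genes. Cryba1 (5791 ± 629), Cryba2 (5468 ± 202), Cryba4 (3382 ± 368), Crybb1 (1926 ± 288) and Crybb3 (1241 ± 199) followed in this order. All neighbours in it had separate ranges except Cryba1 and Cryba2.

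At 72 h the order of the first 3 was kept, at 4479 ± 1721 CPM per kb for Cryaa, 2622 ± 850 for Crybb2 and 1851 ± 771 for Cryab, with each higher than the next in 3 of 3 libraries although their ranges overlapped. They ranked 4, 8 and 10 among all tested genes. Cryba2 (460 ± 227), Cryba1 (409.9 ± 311) and Crybb3 (332 ± 76.8) came next, below every value of Cryab, with ranges that overlapped from neighbour to neighbour. Crybb1 (103 ± 64.3) and Cryba4 (52.4 ± 36.8) were last, below the range of Crybb3, and overlapped, though Crybb1 was the higher in 3 of 3 libraries.

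The 8 genes together held 15.3%, 16.1% and 15.3% of the counts in genes at 0 h and 1.55%, 2.81% and 1.38% at 72 h. The means were 15.6% ± 0.476 and 1.91% ± 0.778 (SD; exact two-sided permutation p = 0.1, the smallest possible). Outside the mitochondrial genome the shares were 16.2% ± 0.481 and 2.37% ± 0.863.

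The other crystallins and related genes were read from a list of 15, of which 13 were tested. Of these, 6 fell, 2 rose and 5 were not called, with a median log2 change of -3.75. With the stricter filter on low counts, 5 fell and 1 rose. Over all tested genes, 17.5% were called lower and 21% higher. The lens gamma crystallins Crygb, Crygc, Crygd, Cryge and Crygf and the related Crygs fell. Crygs, the gamma crystallin of the adult lens cortex, went from 5768 ± 428 to 428 ± 205 CPM (log2 change -3.75 ± 0.37, adjusted p = 5.7e-04). Crygb, Crygc and Crygd went down from 9832, 7915 and 3138 counts over the 0 h libraries to 29, 27 and 5 over the 72 h libraries, and their calls were lost with limma voom (adjusted p = 0.115, 0.0945 and 0.265). Cryge and Crygf had 161 and 131 counts at 0 h and 0 at 72 h, so they could enter the test only through the 0 h group. Their 0 h libraries differed widely, at 4.50 ± 4.32 and 3.69 ± 3.74 CPM (SD, n = 3). Reads of these near-identical genes may have been split or dropped in counting. The 2 genes that rose do not encode lens beta or gamma crystallins: Crybg1, a larger protein with crystallin-like domains, went up from 21.2 to 82.2 CPM (log2 change 1.95 ± 0.34, adjusted p = 0.0031), and Crym, a thyroid hormone binding protein, went up from 17 to 172 counts (log2 change 3.80 ± 0.99, adjusted p = 0.014). The change of Crym was 6.16 without 0 h replicate 2, and its call was lost without 0 h replicate 3 (adjusted p = 0.0711), which left 1 gene higher. With 17 counts at 0 h, Crym could enter the test only through the 72 h group. Crygn was not called (log2 change -3.87 ± 1.11, adjusted p = 0.054), but it was called lower under 5 alternatives: the stricter filter (adjusted p = 0.044), DESeq2 (adjusted p = 0.0025), limma voom (adjusted p = 0.018), and without 72 h replicate 2 (log2 change -5.66, adjusted p = 0.0042) or 3 (adjusted p = 0.046).

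Of the other genes named as small heat shock proteins, 5 of 8 were tested. Hspb2 and Hspb11 fell, none rose and 3 were not called, with a median log2 change of -0.71 (1 of this list was called higher without 72 h replicate 3). Over all tested genes, 17.5% were called lower and 21% higher. Hspb11, whose product is part of the intraflagellar transport machinery, went from 18.5 ± 1.31 to 5.60 ± 2.53 CPM (log2 change -1.72 ± 0.35, adjusted p = 0.0035). Hspb1, the stress-induced chaperone, had a log2 change of -0.52 ± 0.20 and was not called (adjusted p = 0.065), but it was called lower with upper quartile normalisation (adjusted p = 0.037), with no filter (adjusted p = 0.013) and without 0 h replicate 1 (adjusted p = 0.049).

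Transcription factors known to act on crystallin genes were read from a list of 22, all of them tested. Of these, 12 fell, 1 rose and 9 were not called, beside 17.5% of all tested genes lower and 21% higher. The median log2 change was -0.43. Pax6, which binds the Cryaa promoter, was not called (log2 change -0.09 ± 0.11, adjusted p = 0.575). Among the Maf factors, Maf fell by 1.28 ± 0.16 on the log2 scale (adjusted p = 2.5e-04) and Mafg by 0.45 ± 0.10, and Mafa fell from 84 counts over the 0 h libraries to 2. At so few counts at 72 h, Mafa could enter the test only through the 0 h group.

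Prox1, a homeodomain factor of fiber differentiation, fell by 1.67 ± 0.16 on the log2 scale (adjusted p = 4.1e-05). Sox1, which is needed for gamma crystallin expression, fell by 1.94 ± 0.15 (adjusted p = 1.1e-05), and Sox2 by 0.60 ± 0.12. Hsf4, the heat shock factor of the lens, fell by 3.34 ± 0.33 (adjusted p = 4.2e-05). Foxe3, a forkhead factor of lens epithelium, went from 249 ± 8.85 to 58.4 ± 4.92 CPM (log2 change -2.09 ± 0.11, adjusted p = 6.4e-07). Those that fell also included Pitx3, Gata3 and Tfap2a, of which Tfap2a lost its call under 8 alternatives. Sox11, a factor of early development, rose from 1.02 ± 0.375 to 18.7 ± 2.98 CPM (log2 change 4.18 ± 0.37, adjusted p = 2.1e-05). Apart from Foxe3 and Sox11, the factors were named after their values were seen.

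Lens fiber genes other than crystallins fell for 13 of 15 tested members of a list of 16, and none rose, with a median log2 change of -2.67. Over all tested genes, 17.5% were called lower and 21% higher. Birc7 and Dnase2b, with 204 and 161 counts at 0 h and 0 at 72 h, could enter the test only through the 0 h group. With the stricter filter, 11 genes of the list fell. Bfsp1, the gene of filensin in the beaded filaments of fiber cells, went from 1722 ± 204 to 49.3 ± 7.48 CPM (log2 change -5.13 ± 0.16, adjusted p = 2.9e-08). Tdrd7, a component of RNA granules, went from 612 ± 36.9 to 96.5 ± 14.8 CPM (log2 change -2.67 ± 0.13, adjusted p = 5.6e-07). Lens epithelial genes fell for 11 of 17 members and rose for 1, with a median of -1.06. Sulf1, an enzyme that trims sulfate from heparan sulfate, was the one that rose, from 222 ± 4.54 to 525 ± 64.8 CPM (log2 change 1.24 ± 0.11, adjusted p = 2.2e-05). The epithelial list shares Foxe3, Pax6, Pitx3, Six3 and Tfap2a with the transcription factors, and the fiber list shares Prox1.

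**Figure D4:**
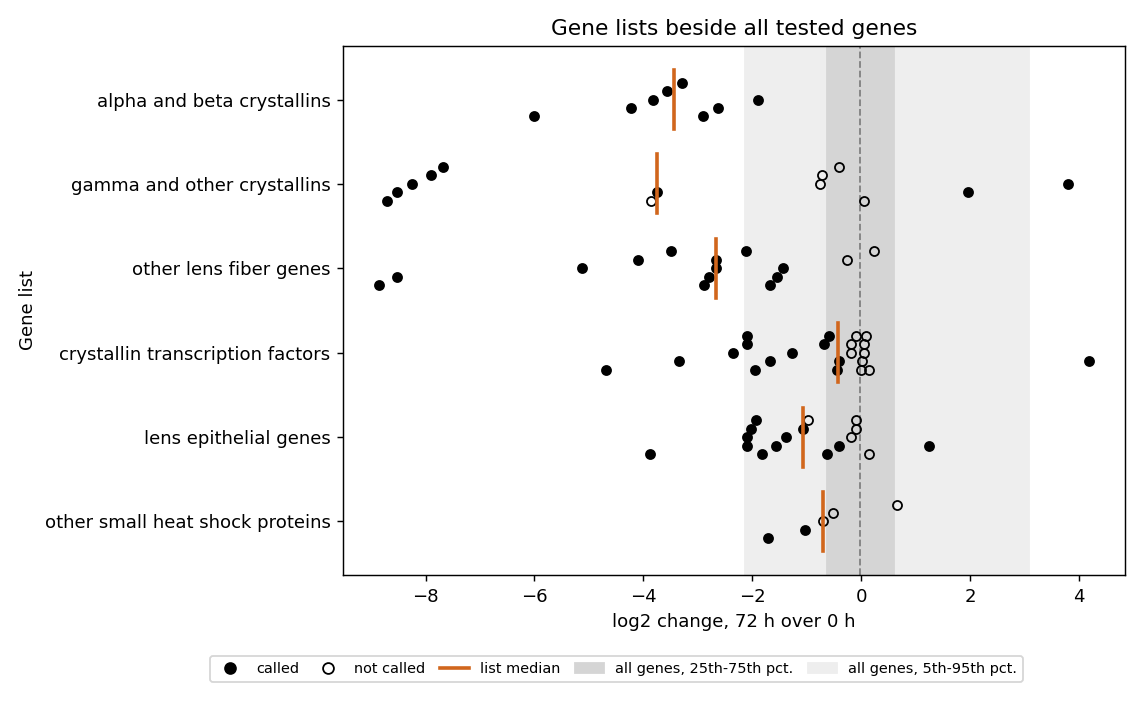
Fitted log2 change (72 h over 0 h) of every tested gene of 6 lists, filled where called and open where not, with the list median as a line and all tested genes as bands (25th to 75th and 5th to 95th percentiles). The 8 alpha and beta crystallins, with a median of -3.43, all lie left of the inner band, which runs from -0.63 to 0.60, and 1 of them (Crybb3, -1.90) lies inside the outer band, which starts at -2.13.

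The genes whose pattern over the 6 libraries was most like the mean of the 8 members were Crygs, Fam222a, Aldoc, Dync1i1 and Sox1ot. Likeness was the root mean square difference of centred log2 CPM among tested genes with at least 10 CPM at 0 h, and it was 0.092 for Crygs and 0.11 to 0.19 for the other 4. Of the members themselves, Cryba2 was closest to the common mean (0.056) and Cryba4 farthest (1.30). Aldoc, a glycolytic aldolase, was at 1431, 1352 and 1464 CPM at 0 h and at 69.3, 169 and 94.9 CPM at 72 h. Its replicate 2 was the highest at 72 h, as in the crystallins. Dync1i1, a dynein intermediate chain, was at 168 ± 2.32 and 16.6 ± 8.91 CPM, and Sox1ot, a noncoding RNA gene that overlaps Sox1, at 212 ± 6.58 and 15.4 ± 8.56 CPM. These genes were chosen for their pattern, so their falls are a description.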

How the data were processed

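Libraries were prepared from total RNA (RNeasy Mini Kit) with a stranded Takara SMARTer Pico v2 kit, per the labels' protocols. Values that the authors deposited are whole-number counts of reads for each Ensembl gene in each library, not normalized. Per the submitters' processing notes, GRCm39, HTSeq, edgeR and HISAT2 were used, while versions, annotation release and strand setting are not given in the sources used here. The 5 lines of reads assigned to no gene (44.0% ± 1.82 of reads at 0 h, 49.7% ± 1.86 at 72 h; SD, n = 3) were left out.

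Symbols (51947 of 56940 identifiers) and exon lengths came from GENCODE M21 and promoters from RefSeq, both on GRCm38, so no gene coordinates are given on the build of the files. Genes were kept by filterByExpr (minimum count 10, minimum total 15) and tested with edgeR 4.0.16 in R 4.3.3 (TMM, robust quasi-likelihood test, two-sided, Benjamini-Hochberg over all 15407 tested genes, threshold 0.05), with time as the only term. Log2 changes used a prior count of 0.125, and standard errors were the absolute log2 change over the square root of F. The fit was tested on simulated data. Shares and ratios were compared by exact two-sided permutation of libraries. No library duplicated another (chi-square per degree of freedom at least 7.08).

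The members and lists were chosen with earlier results of these data known. Named genes are the members, for each other list the called genes with the smallest p (1 in each direction, or 2 where all went one way), and the 5 genes of most similar pattern. From each marker list the gene with the highest mean CPM is named, except for results not reported here, and neighbouring genes were taken from RefSeq, as no annotation on the build of the files was used here. Other genes of the lists were named after their values were seen. Alternatives were other normalizations and filters, DESeq2 1.42.0, limma voom (limma 3.58.1), a replicate block and leaving out each library. Intervals are 95%.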

Additional observations from a re-analysis of the deposited data

How the results depend on the processing

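All 8 members were called lower under each of the 16 alternatives except without 72 h replicate 3, where 7 were, and their median log2 change ranged from -3.82 to -3.23. Genes called over the whole table numbered 2511 to 3646 higher and 1877 to 3265 lower when single libraries were left out. With the replicate block, 2921 genes were higher and 2507 lower, 8 members were lower and the calls of Mip (adjusted p = 0.068) and Lyz2 (adjusted p = 0.052) were lost, among 66 genes followed singly. Mip, of the lens fiber list, had a log2 change of -3.50 ± 0.78 (adjusted p = 0.027) in the main fit. Its call was also lost without 0 h replicate 1, 2 or 3 (adjusted p = 0.080, 0.078 and 0.072) and without 72 h replicate 3 (adjusted p = 0.093). Same-numbered libraries correlated by -0.037, 0.059 and -0.012 in their deviations from the group means, and not every library correlated best with its own number. Such values from 3 libraries a group cannot decide whether pools were paired. The labels do not pair them, so the replicate block was kept as an alternative. As a share of all counted reads, the members held 8.71% at 0 h and 0.953% at 72 h, and without mitochondrial genes 16.2% at 0 h. Per kb, the alpha share at 0 h was 49.0%. The stricter filter (mean count of 50) left 1 other crystallin higher and 5 lower. Leaving out single libraries gave 1 to 2 higher and 5 to 9 lower. For the other small heat shock proteins leaving out single libraries gave 0 to 1 higher. U2af1 and Sik1, neighbours of Cryaa that were not called, reversed when single libraries were left out: U2af1 ranged from -0.016 (without 72 h replicate 2) to 0.193, and Sik1 from -0.013 (without 72 h replicate 3) to 0.52. The cause of these shifts was not tested. The scaling without crystallins and the single-library values of ratios between members were added after seeing the data, and all 8 members were lower with the former too. With 3 libraries a group, differences between members cannot pass a threshold of 0.05 in permutation.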

Other observations

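The protein-coding genes next to the 8 crystallins were read by their order in RefSeq (GRCm38.p6), which places Cryba4 beside Crybb1 and Crybb2 beside Crybb3. Of 12 other genes that adjoin a member, 4 fell, 1 rose, 5 were not called and 2 were not tested. Over all tested genes, 17.5% were called lower and 21% higher. Beside Crybb2, Grk3, a G protein-coupled receptor kinase, went from 37.0 to 10.6 CPM (log2 change -1.80 ± 0.24, adjusted p = 2.6e-04). Beside Cryba4, Mn1, a transcriptional coregulator, went from 29.7 to 12.4 CPM (log2 change -1.26 ± 0.26, adjusted p = 0.0039). On the sides of Cryab, Hspb2 and 2310030G06Rik, whose spans both overlap that of Cryab, fell by 1.04 ± 0.24 and 0.98 ± 0.18 on the log2 scale. Myo18a, an unconventional myosin beside Cryba1, rose from 324 to 442 CPM (log2 change 0.45 ± 0.10, adjusted p = 0.0043). U2af1, Sik1, Nufip2, Tpst2 and 2900026A02Rik had log2 changes from -0.11 to 0.29 and were not called, and Fev and Cfap65 had too few counts for a test. The estimated falls of these 4 neighbours were smaller than those of the crystallins they adjoin, a difference that was not tested.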
